A study of Mus musculus with 69 samples.

Results

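The cytosolic ribosomal protein genes encode the proteins of the ribosome outside mitochondria. They were taken as every mouse gene symbol made of Rpl or Rps and a number, together with Rplp0, Rplp1, Rplp2 and Rpsa and without the pseudogene names that end in -ps. The rule found 89 genes among 55964 gene IDs. By role these were 31 proteins of the small subunit, 43 of the large subunit, 3 of the P stalk, 7 paralogs of such genes and 5 retrocopies or copies with a late name (Rpl32l, Rpl6l, Rps12l1, Rps3a2 and Rps3a3). The 89 genes lie on 19 chromosomes of GRCm38, with 15 on chromosome 7 and 4 on X.

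The study asked what happens when Zeb1, which encodes a repressor of transcription, escapes the microRNAs miR-200a and miR-200b. Zeb1_WT mice carry the normal gene. The edited allele has lost the sites of both microRNA families from its 3′ UTR, in every cell of the body. Heterozygotes are named Zeb1_200H and homozygotes Zeb1_200M. All were C57BL/6J females at proestrus. A young cohort of virgin females was 8 to 12 weeks old. An older cohort of 28 to 36 weeks had gone through a breeding trial with males. The mutant mice descend from 2 edited embryonic stem cell clones, and the labels do not give the clone of a library. Pituitary, hypothalamus and ovary were sequenced in 69 libraries, 3 or 4 per cohort, tissue and genotype, which the study calls biological replicates. The labels do not say which libraries share a mouse, so p-values measure the spread between these libraries. The genotypes are called WT, 200H and 200M from here on. Cohort goes together with age, breeding history, library kit and read layout, so the cohorts cannot be told apart from their chemistry. The young libraries were depleted of ribosomal RNA, stranded and read as pairs from both ends. The older ones were poly(A)-selected, unstranded and read from a single end.

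A cytosolic ribosome has a small subunit that reads the mRNA and a large subunit that joins amino acids, and each holds 1 copy of nearly every ribosomal protein. The P stalk of the large subunit recruits elongation factors. Cells make these proteins in step with ribosomal RNA, and mRNAs of the group typically begin with a run of pyrimidines (C and T), the TOP motif, through which the kinase mTOR and the RNA-binding protein Larp1 set their translation and stability. Secretory cells such as the hormone cells of the pituitary use many ribosomes.

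The start sites of 64 of the 89 genes could be matched in the RefSeq promoter table of GRCm38.p6, which spans 250 bases before to 50 bases after each start. A run of at least 8 pyrimidines was counted if at least 1 of its bases lay within 25 bases of the start, on either side. It need not begin at the first transcribed base, and that of Rpl26 spans positions 22 to 35. Such a run was found in 37 of the 64 (57.8%) and in 24.4% of all 32851 promoters of the table. The windows below are shown because these are the genes named most in the results. They give 30 bases of the sense strand around the longest run, 5′ to 3′, with the run in capitals; where a gene has no run of 4 or more near the start, the window is all in lower case. Rpl4, Rpl26, Rplp0 and Rps2 led the decreases in pituitary. Rpl22 fell in pituitary and its paralog Rpl22l1 did not pass the test, Rps15a and Rpl7l1 were not called in young pituitary, and Rps7, Rps23 and Rpl24 led the increases in young ovary.
Rpl4 at chr9:64173364-64173393, plus strand: acaagTCTTTCCTTTTCCTgtgggagcagc
Rpl26 at chr11:68901582-68901611, plus strand: tgtagTTCTCTTTCCTTTTgcggccatcgg
Rplp0 at chr5:115559473-115559502, plus strand: cctggTTCTCCTataaaaggcacacgcggg
Rps2 at chr17:24720062-24720091, plus strand: tcgcgCTTCTTggagcactataaattgtcc
Rpl22 at chr4:152325705-152325734, plus strand: gccgaCTTCgccctgggaaaagcaatagct
Rpl22l1 at chr3:28805504-28805533, plus strand: gcccgTTCTCTTCCCacggctgcagctcaa
Rps15a at chr7:118116138-118116167, minus strand: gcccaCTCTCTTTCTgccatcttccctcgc
Rpl7l1 at chr17:46782656-46782685, minus strand: ctctaCCCCgcccggtgaggctgcgcaagc
Rps7 at chr12:28635907-28635936, minus strand: ccccaCCTCTTTTCTTCCgccacccggata
Rps23 at chr13:90923141-90923170, plus strand: gtgggTCCTTCCTgcacctcctctctcttt
Rpl24 at chr16:55966286-55966315, plus strand: gggcgctcggaagtgacatcatctctgggc
Long runs by this rule were found in genes that fell in pituitary (Rpl4, Rpl26) and in genes that did not pass the test there (Rpl22l1, Rps15a). Among members with a run of 8 or more, 22 of 36 tested were lower in young 200M pituitary, and among those with a shorter run 16 of 25, where 10.0% of all genes were lower. In older 200M pituitary the counts were 12 of 35 and 13 of 23, where 9.77% of all genes were lower. Motifs were searched on both strands, and a promoter may hold several. CAGGTG or CAGGTA, the E-box forms that ZEB proteins bind, occurred in 9 of the 64 member promoters (14.1%) and in 29.5% of all promoters. CCGGAAGT, an ETS site, occurred in 12 (18.8%) against 3.9%, AAGATGGC, a YY1 site, in 5 (7.8%) against 2.7%, and GGGCGG, an SP1 box, in 38 (59.4%) against 35.7%. These matches describe letters in a fixed window and were not tested as sites.

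Libraries held 3321845 to 14655095 counts, the shallowest being in young hypothalamus. Zeb1 was higher in 200H and 200M than in WT pituitary in both cohorts, by 0.44 and 0.52 on the log2 scale in young mice (adjusted p = 0.000895 and 2.39e-05) and by 0.33 and 0.55 in older mice (adjusted p = 0.0139 and 0.000833). It passed the test in neither hypothalamus nor ovary. Pituitary markers summed to 68620 to 323300 CPM (counts scaled to a common library size) in pituitary libraries. They summed to at most 184 CPM in hypothalamus and 42.7 CPM in ovary. Markers of posterior pituitary and hypothalamic neurons summed to 1844 to 3114 CPM in hypothalamus, at most 742.2 in pituitary and 13.39 in ovary. Ovary markers summed to 1841 to 21970 CPM in ovary, at most 74.75 in pituitary and 55.74 in hypothalamus. By these sums the tissues matched their labels. In the tests of the 18 pairs of genotypes, 75 of the 89 genes had enough counts in all, 7 in some and 7 in none (Rpl10l, Rpl39l, Rpl3l, Rpl6l, Rps12l1, Rps3a2 and Rps3a3).

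In pituitary the mean summed level of the 89 genes was lower in both mutants than in WT, with overlap in older 200H. The members' share of all counts in young pituitary was 0.581% ± 0.0224 (SD, n = 3) in WT, 0.514% ± 0.0184 (n = 4) in 200H and 0.502% ± 0.0241 (n = 4) in 200M. On the CPM scale, where the library total is corrected by TMM factors, the sums were 6246 ± 320, 5036 ± 297 and 4911 ± 297. The 3 WT libraries lay at 5903, 6296 and 6538 CPM, above all 200H libraries (4794 to 5447) and all 200M libraries (4631 to 5319). In older pituitary the shares were 0.635% ± 0.061 (n = 4), 0.591% ± 0.0677 (n = 4) and 0.539% ± 0.0112 (n = 3), and the sums were 6870 ± 779 (SD, n = 4) in WT, 5697 ± 848 (n = 4) in 200H and 5172 ± 10.1 (n = 3) in 200M. The 3 older 200M libraries (5164 to 5184) lay below the 4 WT libraries (5940 to 7759), while the 200H libraries (4735 to 6730) overlapped both. No test was made of a sum over the members. In bulk tissue fewer cells that use many ribosomes and less mRNA per cell cannot be told apart.

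**Figure D1:**
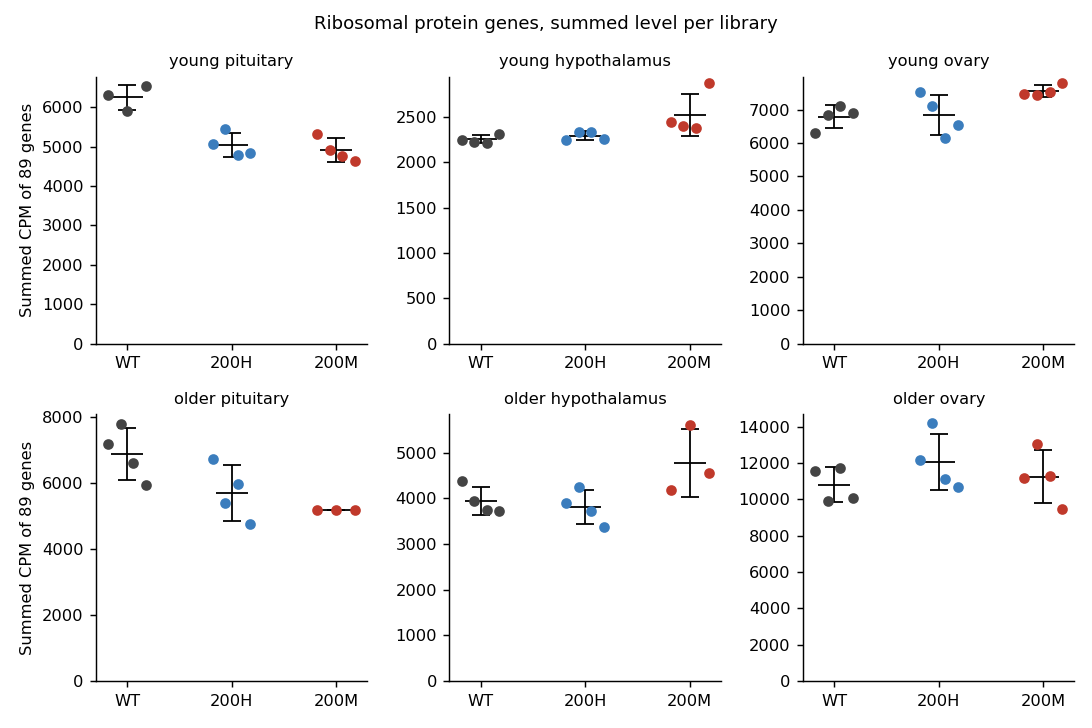
Summed level of the 89 ribosomal protein genes in CPM (vertical axes, from 0) in each library (points) by genotype, for each tissue and cohort, with the mean and SD. The 3 young WT pituitaries sit between 5903 and 6538 CPM, above all young mutant pituitaries, while the genotypes overlap in older ovary.

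By the number of calls the change was broadest in young 200M pituitary, although the median was lower in older 200M pituitary. A replicate block left 11 young and 50 older calls. The block leaves out libraries without a same-numbered partner and rests on 2 young and 3 older pairs. These counts therefore cannot rank the cohorts, and the share of all genes called under the block is not given. Without the block, 52 of 82 members tested with edgeR in young 200M pituitary were lower and 0 higher than in WT at an adjusted p under 0.05. Over all 18199 genes tested, 10.0% were lower and 11.5% higher. The median log2 fold change of the members was -0.30 (middle 50% from -0.38 to -0.22), against 0.0018 over all genes, and 81 of 82 lay below 0. In 58 members all 200M libraries were below all WT libraries, as in 15.1% of all genes. By role, 20 of 31 small-subunit, 28 of 43 large-subunit and 2 of 3 P stalk proteins were lower, with Rps27l, a paralog of Rps27, and the retrocopy Rpl32l.

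Rplp0, the scaffold of the P stalk, measured 249.7, 213 and 256 CPM in young WT pituitary, 166, 192, 150.3 and 151 in 200H, and 175, 157, 153 and 142 in 200M. No mutant library reached the lowest WT value. On the log2 scale 200M stood at -0.59 ± 0.08 (SE, adjusted p = 8.61e-05) against WT, and 200H at -0.53 ± 0.10 (adjusted p = 0.00293). Rplp1, its partner in the stalk, fell by 0.68 in 200M and 0.51 in 200H on the log2 scale (adjusted p = 0.00182 and 0.0288). Rplp2, at 5.84 to 7.32 CPM in WT, gave -0.37 ± 0.21 in 200M and was not called (adjusted p = 0.238).

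Rpl4, a large-subunit protein that lines the exit tunnel (chr9:64173375-64178666, plus strand, GRCm38), measured 618, 623 and 657 CPM in WT, 485, 535, 461 and 470.1 in 200H, and 508, 485, 470.5 and 454 in 200M. WT overlapped neither mutant, and the mutants overlapped each other. Against WT it gave a log2 value of -0.38 ± 0.05 for 200M (adjusted p = 0.000139) and of -0.36 ± 0.07 for 200H (adjusted p = 0.00317). Rps2, at the mRNA entry of the small subunit, measured 212, 207 and 226 CPM in WT, 177, 171, 159.8 and 159.95 in 200H, and 174, 158, 158 and 152 in 200M. It fell by 0.41 on the log2 scale in 200M (SE 0.06, adjusted p = 0.000328) and by 0.35 in 200H (SE 0.07, adjusted p = 0.00449), again without overlap with WT.

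Other members with known roles followed the same direction. Rpsa, the laminin receptor precursor of the small subunit, was lower by a log2 change of -0.44 in young 200M and of -0.37 in young 200H (adjusted p = 0.00429 and 0.0173). Rps6, the substrate of S6 kinase, fell by 0.25 and 0.27 (adjusted p = 0.0122 and 0.0222). Rps18 fell by 0.48 in 200M (adjusted p = 0.00708), and Rps27a, which is made as a fusion with ubiquitin, by 0.38 (adjusted p = 0.0272). Neither Rps18 nor Rps27a passed in 200H. In older 200M pituitary Rps18 was also called lower, while Rpsa, Rps6 and Rps27a were not.

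Rpl5 and Rpl11 bind 5S ribosomal RNA and, when free, the p53 regulator Mdm2. Rpl5 fell by 0.35 in young 200M and 0.32 in young 200H (adjusted p = 0.00236 and 0.013), while Rpl11 gave -0.31 ± 0.11 and -0.17 ± 0.11 and was not called (adjusted p = 0.0686 and 0.381). Rpl41, a very short basic protein, fell by 0.47 and 0.42 (adjusted p = 0.000784 and 0.0102), and Rpl19 by 0.46 and 0.42 (adjusted p = 0.0105 and 0.0127). In older 200M pituitary Rpl41 was also called lower, while Rpl5 and Rpl19 were not among the called members. Not every member was tested there. Rpl13a, often used as a reference gene, gave -0.18 ± 0.10 and -0.17 ± 0.09 (adjusted p = 0.218 and 0.262). Rps15a, at 56.3 to 59.9 CPM in WT and 56.3 to 60.9 in 200M, gave 0.0064 ± 0.07 and its groups overlapped.

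The young heterozygotes had 25 members lower and 0 higher of 82 tested, where 5.72% of all genes were lower and 6.56% higher. The median of the members was -0.27, and in 51 members the 200H libraries did not overlap WT (12.1% of all genes in that direction). Lower members were 9 of 31 in the small subunit, 13 of 43 in the large subunit and 2 of 3 in the P stalk, with Rpl32l. Between 200M and 200H, 0 of 82 members were called in either direction (background 0.0219% lower and 0.0164% higher), 1 had an unadjusted p under 0.05, DESeq2 also called 0, and the median was -0.05. The retrocopy Rpl32l had the largest fold change, at 2.56, 4.04 and 1.72 CPM in WT and 0.808 to 1.24 CPM in 200M, a log2 fold change of -1.40 ± 0.36 (adjusted p = 0.0109) that rests on few counts.

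**Figure D2:**
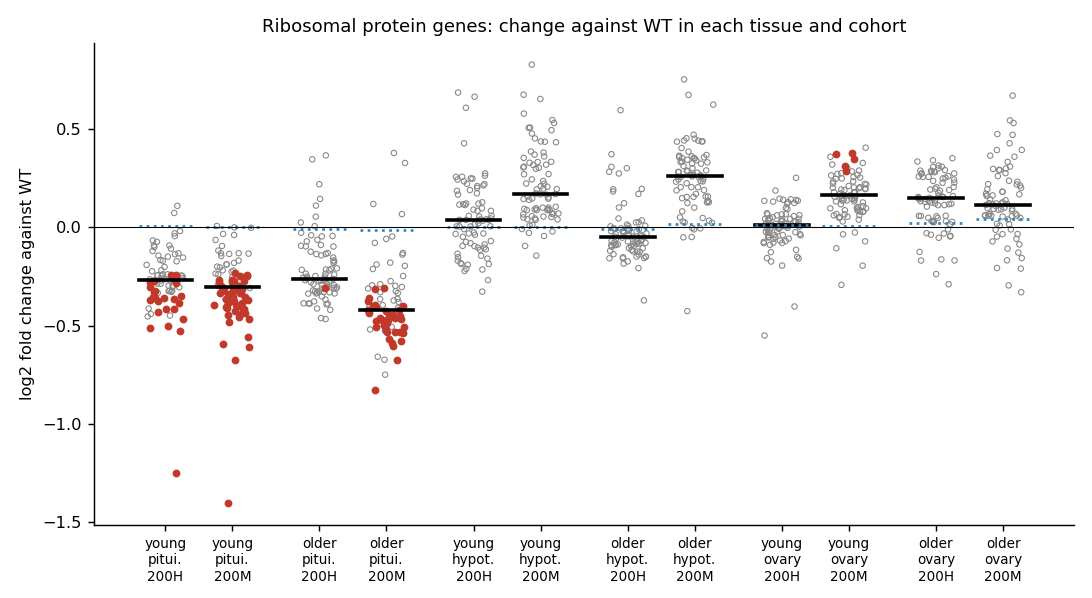
Log2 fold change of each ribosomal protein gene against WT (points, vertical axis) in each tissue, cohort and mutant; filled red points have an adjusted p under 0.05, black bars are the members' medians and dotted lines the median of all genes tested. All filled points in the 4 pituitary columns lie below 0, and the 5 filled points of young 200M ovary lie above 0.

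In older 200M pituitary 38 of 78 members tested were lower and 0 higher, where 9.77% of 14711 genes were lower and 11.7% higher. The median was -0.42, against -0.01 for all genes. In 43 members the 200M libraries lay below all WT libraries (15.4% of all genes). Lower members were 15 of 31 in the small subunit, 20 of 40 in the large subunit and 3 of 3 in the P stalk. In older 200H pituitary the median was -0.26, but 1 of 80 members was lower and 0 higher (5.14% and 7.09% of all genes), and 5 had all 200H libraries below WT (8.22%) and 0 above (9.24%). The count called was 12 without WT replicate 4, 10 without 200H replicate 1, 1 without WT replicate 1 and 0 without any other library. Between older 200M and 200H, 0 of 79 members were called by edgeR (0.0269% and 0.0942% of all genes) and 0 by DESeq2, 9 had an unadjusted p under 0.05, all lower, and the median was -0.16.

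Rpl4 in older pituitary measured 1188, 1219, 1051 and 976 CPM in WT, 1022, 847, 904 and 752 in 200H, and 778, 775 and 824 in 200M. The 200M libraries lay below all WT libraries and 200H overlapped both. The log2 fold change of 200M was -0.49 ± 0.09 (adjusted p = 0.00336). Rpl26, which sits near the exit tunnel, measured 52.9, 64.1, 55.3 and 48.55 CPM in WT, 55.5, 42.4, 46.7 and 40.1 in 200H, and 38.5, 39.6 and 36.6 in 200M, a fall of 0.53 on the log2 scale (SE 0.11, adjusted p = 0.00444). No 200M library reached the lowest WT library. Rplp0, Rplp1 and Rplp2 fell by 0.51, 0.53 and 0.47 (adjusted p = 0.00599, 0.0112 and 0.0172).

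The member called in older 200H pituitary was Rpl7l1, a relative of Rpl7. It measured 56.4, 56.3, 52.1 and 45.2 CPM in WT and 43.9, 42.2, 42.7 and 40.4 in 200H, without overlap, and fell by 0.31 on the log2 scale (SE 0.09, adjusted p = 0.0425). The call was lost in 11 of 16 other settings, among them the removal of each library but WT replicate 4. In young pituitary Rpl7l1 gave 0.11 ± 0.11 in 200H and -0.03 ± 0.10 in 200M.

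**Figure D3:**
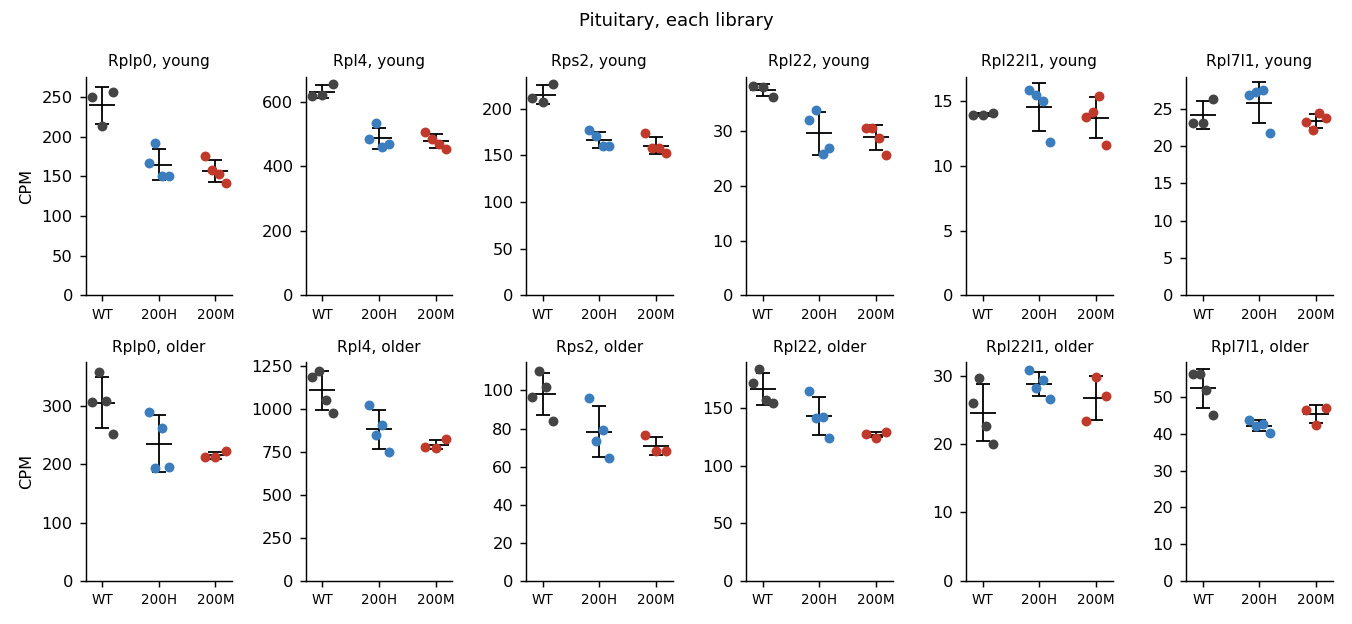
CPM in each pituitary library (points, vertical axes from 0) of 6 members in the young (top) and older (bottom) cohort by genotype, with mean and SD. Rplp0, Rpl4, Rps2 and Rpl22 have their 200M libraries below all WT libraries in both cohorts, while those of Rpl22l1 overlap WT in both.

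The cohorts were compared member by member, since their mice are different. Of 78 members tested in both, 50 were lower in young and 38 in older 200M pituitary, and 33 in both, which is 66.0% of the young and 86.8% of the older calls. Of the 78, 73 had fold changes below 0 in both cohorts. Rps20, Rpl30, Rplp2, Rps21 and Rpl37 were lower in the older cohort alone by this threshold, and their difference between cohorts was not tested. Rpl15, a large-subunit protein, gave 0.38 ± 0.16 in older 200M (adjusted p = 0.113) and -0.06 ± 0.09 in young 200M, so it passed in neither. For 200H, 71 of 80 members lay below 0 in both cohorts, and 24 young calls and 1 older call had 0 in common.

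Paralogs and their parent genes were described side by side, and no difference within a pair was tested. Rpl22 and Rpl22l1 encode near relatives that can replace each other in the large subunit. Rpl22 fell by 0.36 in young and 0.39 in older 200M pituitary on the log2 scale (SE 0.09 and 0.09, adjusted p = 0.00936 and 0.00685). Rpl22l1 gave -0.0011 ± 0.13 and 0.12 ± 0.15 (adjusted p = 0.997 and 0.615). Per kilobase of transcript, Rpl22l1 stood at 1.42 times the level of Rpl22 in young WT pituitary, 0.562 times in older pituitary, 4.15 times in young hypothalamus and 0.485 times in older ovary.

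Rps27l, a p53 target that can stand in for Rps27, measured 13.0 to 15.4 CPM in young WT pituitary and fell by 0.61 in 200M (SE 0.13, adjusted p = 0.00406), while Rps27 gave -0.10 ± 0.10 (adjusted p = 0.562). In older 200M pituitary Rps27l gave -0.40 ± 0.15 (adjusted p = 0.0827). Rpl7 fell by 0.27 in young and 0.45 in older 200M (adjusted p = 0.00563 and 0.00765), and Rpl10 by 0.27 and 0.46 (adjusted p = 0.00426 and 0.0257). Rps4x fell by 0.27 in young 200M (adjusted p = 0.0152), whereas its paralog Rps4l gave -0.0029 ± 0.16. Rpl39 fell by 0.43 in young 200M (adjusted p = 0.0107), and Rpl3 gave -0.22 ± 0.09 (adjusted p = 0.102). Rpl3l, a muscle paralog, and Rpl10l and Rpl39l, which are used in male germ cells, had at most 19 counts summed over the WT libraries of any tissue and cohort, against 28.4 to 41.7 CPM per kb for Rpl3 in pituitary.

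Other genes that serve the ribosome were counted in lists, to be read against the 10.0%, 5.72% and 9.77% of all genes that were lower in young 200M, young 200H and older 200M pituitary. Of 24 translation factors and other TOP mRNAs, 12 were lower in young 200M, 7 in young 200H and 10 in older 200M pituitary, and 0 were higher. Pabpc1, the poly(A)-binding protein, fell by 0.61, 0.55 and 0.55 in that order (adjusted p = 3.26e-06, 0.0007 and 0.00129). Rack1, a scaffold on the small subunit, fell by 0.52, 0.43 and 0.51 (adjusted p = 1.23e-05, 0.00139 and 0.0039).

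Of 40 ribosome biogenesis genes, 5, 8 and 6 were lower in those comparisons and 0 higher, and the 5 in young 200M are close to the share of all genes. Among them was Nop56, a box C/D snoRNP core protein, at -0.38 in young and -0.56 in older 200M (adjusted p = 0.00678 and 0.00261). Of 15 regulators of ribosome supply, 4, 4 and 7 were lower and 0 higher. In older 200H pituitary 0 genes of these 3 lists were called. Larp1 fell by 0.59, 0.60 and 0.42 in young 200M, young 200H and older 200M (adjusted p = 7.77e-05, 0.00173 and 0.00761). Myc fell by 0.50 and 0.64 in young 200M and 200H (adjusted p = 0.00967 and 0.00111) and gave -0.34 ± 0.18 in older 200M, where it was not called (adjusted p = 0.205). Of 11 genes of the p53 response, 5 were lower and 1 higher in young 200M. Among 78 mitochondrial ribosomal protein genes 0 were lower and 1 higher in young 200M pituitary, and 4 of 76 tested were lower and 0 higher in the older cohort. Among 75 tested nuclear genes of oxidative phosphorylation, 2 were lower and 0 higher in each. Of 8 housekeeping reference genes 0 were called in any of these comparisons.

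The members have short transcripts, with a median length of 777.5 nt, so the trend of fold change with length was measured over all genes. In young 200M pituitary fold change rose with length by 0.0336 on the log2 scale per doubling, and in older 200M pituitary by 0.0962. Other genes under 1000 nt had a median of -0.07 in young and -0.13 in older 200M pituitary, against -0.31 and -0.42 for the 64 and 60 members of that length. Members of 1000 to 2000 nt had medians of -0.28 and -0.45, against -0.02 and -0.08 for other genes. With the length trend removed, 40 members were called as lower in young 200M pituitary, and 23 were lower and 1 higher in the older cohort.

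**Figure D4:**
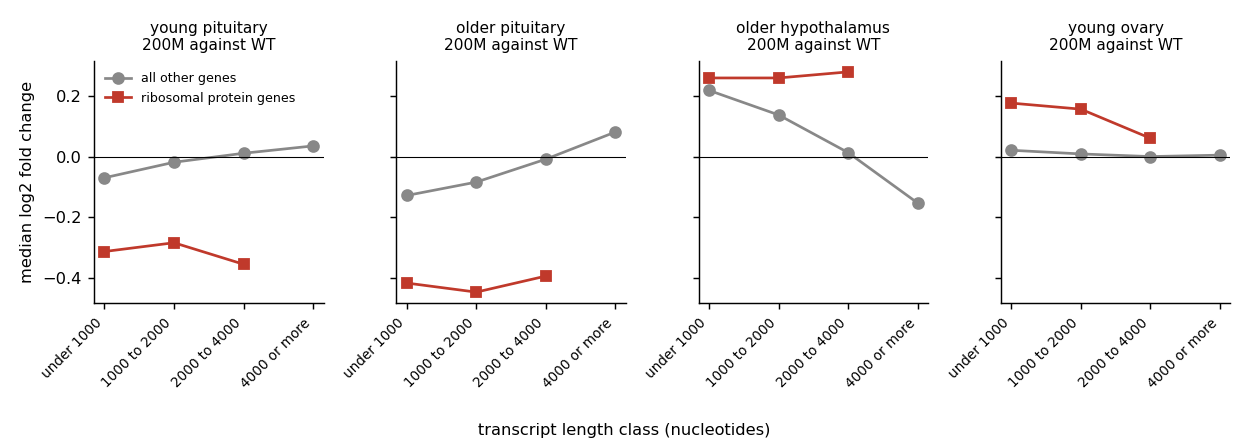
Median log2 fold change of 200M against WT by transcript length class for ribosomal protein genes (red squares) and all other genes (grey circles), in 4 tissues and cohorts; classes with 1 member are not drawn, and the class of 2000 to 4000 nt holds 3 members. Members lie below other genes of their class in both pituitaries (-0.31 against -0.07 under 1000 nt in the young cohort) and close to them in older hypothalamus under 1000 nt, but not at 1000 to 2000 nt (0.26 against 0.14).

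The make-up of the pituitary libraries moved with these results. Prl, the prolactin mRNA, took 12.5 to 14.5% of all counts in young WT pituitary, 3.06 to 6.11% in 200H and 4.06 to 6.17% in 200M, and in older pituitary 15.8 to 19.5%, 6.35 to 11.9% and 5.67 to 7.53%. Scaling by the library total alone, which this share enters, gave the median of all genes a log2 value of 0.12 in young and 0.16 in older 200M pituitary, where TMM scaling gave 0.0018 and -0.01. Under it 22 members were lower in young 200M pituitary and 8 in young 200H, and in the older cohort 11 were lower and 1 higher in 200M. The members' medians then were -0.18, -0.14 and -0.25, below the median of all genes in each.

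Of 10 pituitary markers, 5 were lower and 0 higher in young 200M, and 3 lower and 1 higher in older 200M. Their summed level was 164900 to 188200 CPM in young WT, 70470 to 98800 in 200H and 68620 to 88290 in 200M, with 0 of 10 at 0. Prl, which is among them, made up most of this sum. Its means were 142800, 47330 and 46400 CPM in these groups, while those of Gh were 28250, 33490 and 30040 CPM. Markers of posterior pituitary and hypothalamic neurons summed to 578 to 627, 559 to 654 and 622 to 742 CPM in young WT, 200H and 200M, and to 362 to 435, 405 to 484 and 550.4 to 609.5 CPM in older ones, where Pmch was at 0. Fat and blood markers summed to 59.5 to 118, 66.5 to 196 and 91.4 to 113 CPM in young pituitary and to 43.0 to 89.3, 24.2 to 142 and 72.8 to 235 in older pituitary, where Adipoq was at 0. Their part in the changes of the ribosomal protein genes was not tested.

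Single libraries mattered to the counts. Without WT replicate u, a library whose column is numbered 3 where the labels number the group's samples 1, 2 and 4, 30 members were lower in young 200M pituitary and 5 in that of young 200H, and without 200M replicate 3 it was 34 in young 200M. Young 200H counts were 6 without WT replicate 1, 16 without 200H replicate 1 and 15 without 200H replicate 4. Older 200M counts were 25 without WT replicate 2, and 20, 17 and 17 without 200M replicates 1, 2 and 3. All of these were lower calls. Rplp0, Rpl4 and Rps2 in young 200M and Rpl4 and Rpl26 in older 200M pituitary kept their calls under all 15 other settings.

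In hypothalamus, edgeR with its filter on low counts called 0 members in any pair of genotypes in either cohort. Without that filter it called, all higher, 16 members in older 200M against WT, 32 in older 200M against 200H and 1 in each of the same young pairs. With the filter, 0.00667% of all genes were lower and 0.0133% higher in young 200M. The shares were 0.0134% and 0.00672% in young 200H, and 0.00622% were higher in older 200M. No share of all genes is given here for the fit without the filter. In young hypothalamus DESeq2 also called 0, and an unadjusted p under 0.05 was found for 17 members in 200M, all higher, for 5 higher and 2 lower in 200H, and for 10 higher between 200M and 200H. In young hypothalamus the summed level was 2253 ± 44.5 CPM (n = 4) in WT, 2294 ± 48.2 (n = 4) in 200H and 2527 ± 233 (n = 4) in 200M. The median log2 fold change in 200M was 0.17, and 11 members had all 200M libraries above WT (1.77% of all genes) and 0 below (1.53%). It was 0.08 without 200M replicate 4, the library with the highest level (2875 CPM against 2385 to 2448 in the other 200M libraries). Pituitary markers summed to 40.1 to 68.5 CPM in young WT hypothalamus, 27.5 to 54.4 in 200H and 41.9 to 71.0 in 200M. Among them Prl was lower in both mutants, at -2.86 ± 0.43 in 200M and -2.85 ± 0.45 in 200H (adjusted p = 0.00605 and 0.004), and the part of these markers was not tested.

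In older hypothalamus the sums were 3949 ± 306 CPM (n = 4), 3808 ± 369 (n = 4) and 4783 ± 744 (n = 3). The median in 200M was 0.26, 33 members had an unadjusted p under 0.05 on the higher side, and 13 had all 200M libraries above WT (7.9% of all genes) and 0 below (7.86%). DESeq2 called 5 members higher there, and 10 higher between 200M and 200H, where edgeR called 0 and 38 had an unadjusted p under 0.05. The share of all genes called by DESeq2 is not given here. edgeR called 3 higher in 200M without WT replicate 1. In older 200H neither tool called a member and 1 had an unadjusted p under 0.05. The 200M replicates stood at 4173, 5612 and 4565 CPM, and the slope of their log2 deviation with transcript length was -0.0362, -0.146 and -0.0627 per doubling. In WT libraries the slope was 0.00725 to 0.0506. Other genes under 1000 nt had a median of 0.22, close to the 0.26 of members of that length, while at 1000 to 2000 nt other genes had 0.14 and the 14 members 0.26, and at 2000 to 4000 nt other genes had 0.01 and the 3 members 0.28. The members' median was 0.07 with the length trend removed and 0.16 without 200M replicate 2. Pituitary markers summed to 62.3 to 107 CPM in older WT hypothalamus and to 93.1 to 184 in 200M, and their part was not tested.

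In young ovary the direction was opposite to that in pituitary. Of 81 members tested in 200M, 5 were higher and 0 lower, where 0.878% of 19250 genes were higher and 1.70% lower. The median was 0.16, 37 members had an unadjusted p under 0.05 on the higher side, and in 30 the 200M libraries lay above all WT libraries (4.32% of all genes), while in 0 they lay below (4.65%). Summed levels were 6783 ± 349 CPM in WT, 6831 ± 600 in 200H and 7551 ± 172 in 200M (SD, n = 4 each). The called members were Rpl24, Rps7, Rps23, Rps27a and Rps10.

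Rpl24, of the bridge between the subunits, measured 32.3, 31.6, 32.7 and 32.3 CPM in WT, 33.5, 31.2, 27.2 and 32.6 in 200H, and 40.8, 43.0, 38.6 and 40.9 in 200M. The 200M libraries stood above all others. The log2 fold change was 0.34 ± 0.07 (adjusted p = 0.0244). Rps7, of the small subunit, measured 34.6, 34.1, 41.2 and 33.8 CPM in WT, 47.2, 45.1, 25.6 and 37.9 in 200H, and 47.8, 46.3, 49.1 and 43.0 in 200M, a log2 fold change of 0.37 ± 0.09 (adjusted p = 0.0373). Rps23, at the decoding centre, measured 33.4, 31.6, 36.0 and 33.1 CPM in WT and 40.7, 41.3, 42.4 and 42.1 in 200M (0.31 ± 0.07, adjusted p = 0.0423). In 200H the libraries of Rps7 spanned both other groups.

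These ovary calls depended on single libraries. The count was 0 without WT replicate 1, 2 or 4 or 200M replicate 1, 1 without 200M replicate 3 or 4, 2 without WT replicate 3 and 10 without 200M replicate 2. It was 13 under scaling by the library total, all higher, and 0 with all 3 genotypes in 1 fit. In young 200H ovary, and between 200M and 200H, edgeR and DESeq2 called 0 members (0.0051% of all genes were lower in 200H), 1 and 21 had an unadjusted p under 0.05, and the medians were 0.0093 and 0.16. In older ovary the sums were 10810 ± 954, 12050 ± 1560 and 11250 ± 1470 CPM (n = 4 each), and edgeR and DESeq2 called 0 members in any pair, where 1.19% of all genes were lower and 1.52% higher in 200M against WT and 0.902% and 0.711% in 200M against 200H. An unadjusted p under 0.05 was found for 1 member in 200M, 7 in 200H and 1 between them, and the median in 200M was 0.12. Without 200M replicate 2 that median was -0.03.

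Whether the genotype effect differed between tissues was tested as an interaction of genotype and tissue. The 200M effect was lower in pituitary than in hypothalamus for 30 of 82 members in the young cohort (3.88% of all genes) and 42 of 81 in the older cohort (7.08%). The medians of these differences were -0.49 and -0.68. Against ovary the effect was lower for 49 of 82 members in the young cohort (4.45%) and for 2 of 81 in the older cohort (2.48%), among them Rpl29, with medians of -0.44 and -0.53. No member differed in the other direction. The study counted older pituitary and older ovary with different tools and annotations, and the part of this in their contrast was not tested. With the length trend removed, the older count against hypothalamus was 20, with a median of -0.40, and the older count against ovary 0. Without the filter on low counts the young count against ovary was 23 and the older one 0. Rpl4 gave -0.47 ± 0.09 (adjusted p = 0.000368) and Rps2 -0.71 ± 0.13 (adjusted p = 0.000482) for young pituitary against hypothalamus, and Rps2 gave -0.66 ± 0.10 (adjusted p = 0.000226) against ovary. Rplp0 gave -0.87 ± 0.17 (adjusted p = 0.00149) for older pituitary against hypothalamus. The young count against hypothalamus was 20 without 200M hypothalamus replicate 4, and the young count against ovary 31 without WT pituitary replicate u. The older count against ovary was 16 without 200M ovary replicate 4, 5 without 200M ovary replicate 3, 4 without 200M ovary replicate 2 or WT pituitary replicate 4, and 0 or 1 without any other library.

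Wild-type tissues were compared within a cohort. In the young cohort 79 of 81 members were higher and 1 lower in pituitary than in hypothalamus (36.8% and 35.4% of all genes), with a median log2 difference of 1.38. Ovary exceeded hypothalamus in 78 and was lower in 3 (40.6% and 36.1%), with a median of 1.23. Rplp0 was 2.58 ± 0.08 higher in pituitary and 2.52 ± 0.07 higher in ovary than in hypothalamus on the log2 scale (adjusted p = 2.07e-18 and 4.37e-18). Rps15a went the other way, at -0.88 in pituitary and -0.81 in ovary, as did Rps4l and Rpl22l1 in ovary at -0.89 and -0.49. The transcript length of Rps15a, 5130 nt, was the longest among the members.

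Young ovary and pituitary were closer, with 13 members higher and 22 lower in ovary (35.6% and 32.7% of all genes) and a median of -0.06. Under scaling by the library total 36 were higher and 9 lower, with a median of 0.17, and with the length trend removed 11 were higher and 31 lower. Rpl41 fell by 0.73 on the log2 scale from pituitary to ovary (adjusted p = 4.43e-07). In the older cohort 57 of 81 members were higher and 2 lower (Rps15a and Rpl15) in pituitary than in hypothalamus (37.6% and 39.2%), with a median of 0.65. Scaling by the library total gave 46 higher and 5 lower. Older ovary was counted by the study against another annotation, and its WT levels were not set against those of the other older tissues.

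Levels between members were compared per kilobase of transcript over the 77 core proteins. In young WT pituitary Rpl41 (783 ± 85.5 CPM per kb) stood highest and Rps19 (13.4 ± 0.936) and Rps15a (11.4 ± 0.356) lowest. In young hypothalamus Rpl41 (176 ± 6.12) was among the highest, and Rpl36a (4.8 ± 1.67) and Rplp2 (3.75 ± 1.72) were the lowest. In young ovary Rpl41 (529 ± 29.7) was among the highest, and Rps15a (13.8 ± 1.14) and Rpl37 (13.0 ± 2.57) came last.

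The older cohort had another order. Rpl4 (721 ± 74.4 CPM per kb) and Rpl8 (704 ± 68.6) led in older pituitary, and Rpl24 (1.71 ± 0.263) and Rpl23a (1.70 ± 0.624) came last. In older hypothalamus Rpl8 (346.5 ± 33.3) and Rps3 (339 ± 31.1) led and Rps23 (1.52 ± 0.227) and Rpl24 (0.838 ± 0.332) came last. In older ovary Rps3 (998 ± 107) led, and Rpl24 (1.34 ± 0.203) and Rps6 (1.23 ± 0.189) came last. The leading pairs of older pituitary and hypothalamus lay within each other's spread. Rpl24 had 3 to 14 counts per older pituitary library, so the older cohort carries little information on it.

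Ribosomal protein genes have many processed pseudogenes, and the counters used leave out reads with several alignments by default, so the share of each transcript that can be told from copies elsewhere was measured. The share of 50-base windows of a member's transcripts that occur in the transcripts of no other annotated gene had a median of 58.2% and ranged from 0 to 100%; it was under 50% for 36 members and under 25% for 16. In older WT pituitary, 13 core members under 25% had a median of 13.8 CPM per kb and 17 at 75% or more had 86.2, while in young pituitary the medians were 65.3 and 50.7. In older ovary they were 12.8 and 158. Young libraries had paired reads and older ones single reads, and the part of this was not tested. Rpl24 was at 18.3%, Rpl23a at 14.3%, Rps6 at 15.4%, Rpl4 at 83.5% and Rpl8 at 93.7%.

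**Figure D5:**
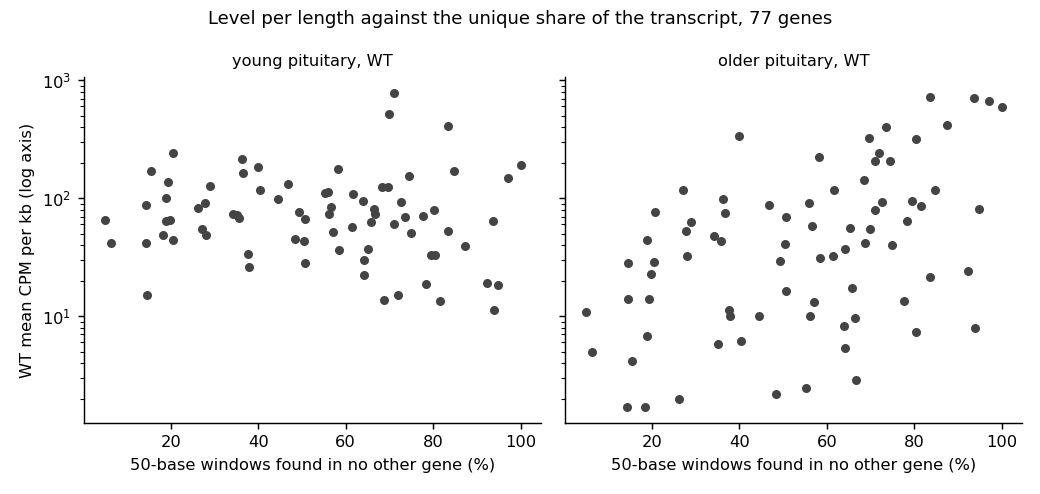
WT level per kilobase (vertical axes, log scale) of 77 core ribosomal protein genes against the percent of 50-base windows of their transcripts found in no other gene (horizontal axes), in young and older pituitary; each point is 1 gene. In older pituitary the levels of genes under 25% have a median of 13.8 against 86.2 CPM per kb at 75% or more, and in young pituitary 65.3 against 50.7.

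The genotype effect was then counted on both sides of that measure. Among members with at least 50% unique windows 31 of 50 were lower in young 200M pituitary, and among the rest 21 of 32, with medians of -0.30 and -0.31. In older 200M pituitary 25 of 49 and 13 of 29 were lower, with medians of -0.42 and -0.42. Exons of 19 members overlap another annotated gene, 5 on the same strand, among them Rpl13a, Rpl19, Rpl24 and Rps10, and 16 on the opposite strand, among them Rpl22l1, Rps10 and Rps27a. Reads in same-strand overlaps are uncertain in both cohorts, and those in opposite-strand overlaps in the unstranded older cohort.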

How the data were processed

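RNA-seq libraries of pituitary, hypothalamus and ovary were aligned by the authors to mm10 (GRCm38) with STAR 2.7.1a. The deposited values used here are raw read counts per gene. The authors counted young libraries and older ovary with featureCounts (GENCODE vM25) and older pituitary and hypothalamus with HTSeq 0.9.1 (Ensembl). The tables also hold the authors' fold changes and p-values, which were not used. Of the per-sample columns 141 were not used: all but 3 are the authors' normalized copies of the counts, and the 3 are WT counts in a table that repeats a column name. No 2 libraries of a group were copies of each other (99 pairs, smallest chi-square per degree of freedom 1.89).

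Each pair of genotypes was fitted within tissue and cohort over all genes in R 4.3.3 with TMM scaling, filterByExpr, edgeR's quasi-likelihood test (version 4.0.16, on limma 3.58.1) and Benjamini-Hochberg adjustment. A gene was called at an adjusted p under 0.05. SE was obtained by dividing the absolute log2 value by the root of the F statistic, and SD is over libraries. CPM used TMM factors over the libraries of a tissue and cohort. Lengths, positions and exons are those of GENCODE M21 on GRCm38. The scripts were tested on simulated data with 200 changed genes. Alternatives were DESeq2 1.42.0, RLE scaling, scaling by library total, no filter on low counts, removal of the length trend (lowess, span 0.3), all 3 genotypes in 1 fit, a replicate block and leaving out each library.

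Members and lists were chosen with earlier results of these data known. Genes named are, per genotype comparison, the 3 called members of smallest p in each direction whose libraries do not overlap; the paralog pairs; Rplp0, Rplp1, Rplp2, Rpsa, Rps6, Rps27a, Rpl13a, Rps18, Rpl19, Rpl41, Rpl5, Rpl11 and Rpl4; and the 2 highest and 2 lowest core members per length in each WT tissue. Rps15a, Rpl15, Rpl32l, Rps10, Rpl29, Rps20, Rpl30, Rps21 and Rpl37 were also named after their values were seen. Up to 3 genes of other lists serve as examples, and Zeb1 and Prl as checks. Some genes that these rules name are not reported here.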

Additional observations from a re-analysis of the deposited data

Results flagged for a closer look

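Among 38 groups of 4 libraries tested, 3 held a library whose gap to its neighbour exceeded Dixon's 95% critical value (0.829), which chance gives in about 1 of 20 groups. In young hypothalamus 200M replicate 4 had 0.2986% of its counts at the ribosomal protein genes, above the other 200M libraries (0.2357 to 0.2441%). In young ovary WT replicate 1 had 0.6095%, below the other WT libraries. In young ovary WT replicate 3 had 41.22 CPM of Rps7, above the other WT libraries at 33.8 to 34.6 CPM.

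The effect of 200M against WT differed between tissues by the interaction test. It was lower in young pituitary than in hypothalamus for 30 members (3.88% of all genes) and than in ovary for 49 (4.45%). In the older cohort it was lower in pituitary than in hypothalamus for 42 (7.08%) and than in ovary for 2 (2.48%). The last count, 2 of 81 members tested (2.47%), is at the share of all genes.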

How the results depend on the processing

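Counts are members called, lower unless said otherwise. The shares of all genes called under these settings are not given. Scaling by library total gave 22 in young 200M pituitary, 8 in young 200H, 12 in older 200M (11 lower), 2 in older 200H (both higher), 13 in young 200M ovary (all higher) and 1 for older pituitary against ovary; it turned the median of young WT ovary against pituitary to 0.169. DESeq2 gave 3 in older 200H pituitary, 10 for older pituitary against ovary and, all higher, 2 in young 200M ovary, 5 in older 200M hypothalamus and 10 there against 200H. No filter gave 13 (12 lower) in older 200H pituitary, 1 in older 200M against 200H pituitary, 23 and 0 for young and older pituitary against ovary and, all higher, 16 and 32 in older 200M hypothalamus against WT and 200H, 1 in each of the same young pairs and 1 in young 200M ovary. Removing the length trend gave 24 in older 200M pituitary (23 lower), 3 in older 200H (1 lower), 20 and 0 for older pituitary against hypothalamus and ovary, and 2 higher in young 200M ovary. The fit of 3 genotypes gave 4 in older 200H pituitary and 0 in young 200M ovary. Over the named genes, 199 combinations of a call and another setting were examined. The call was lost in 50 of them and turned in 0. In young 200M ovary Rps23 lost 13, Rpl24 11 and Rps7 9, and in older 200H pituitary Rpl7l1 lost 11. Each other named call lost at most 2. RLE scaling moved no count by over 1.5 times. The cause of these moves was not tested, apart from the fewer libraries or other genes tested that a setting itself brings.

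Leaving out 1 library gave 30 to 54 in young 200M pituitary, 5 to 33 in young 200H, 17 to 51 in older 200M, 0 to 12 in older 200H, 0 to 1 in older 200M against 200H, 0 to 3 higher in older 200M hypothalamus and 0 to 10 higher in young 200M ovary. It gave 31 to 52 for young and 0 to 16 for older pituitary against ovary, and 20 to 34 and 31 to 50 against hypothalamus.

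Replicate numbers were not treated as pairs in the main fits. Same-numbered libraries of different genotypes within a tissue correlated between -0.701 and 0.436 in their deviations from group means. In no pair of genotypes were all correlations over 0.1. With so few libraries this cannot exclude shared litters or batches, and same-numbered libraries of different tissues were not compared. With the replicate block, 11 members were called in young 200M pituitary, 3 in young 200H, 50 in older 200M, 0 in older 200H, 0 in young 200M ovary, 13 and 2 for young pituitary against hypothalamus and ovary, and 0 for older pituitary against ovary. In young pituitary WT replicate u and mutant replicates 3 and 4 have no same-numbered partner, so the block left them out of the contrasts with WT. Those contrasts rest on 2 same-numbered pairs for each mutant, and that of older 200M pituitary on 3. With the block and the length trend removed, 9, 0 and 0 were called in young 200M pituitary, young 200H pituitary and young 200M ovary.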
